A study of Mus musculus with 31 samples.

Results

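Interferon-inducible GTPases and the transcription factor Irf1 were followed in sorted mouse blood-forming cells after β-glucan, a fungal cell wall polysaccharide. The 10 genes were chosen by symbol (Gbp2, Gbp3, Gbp6, Gbp7, Gbp9, Iigp1, Irgm1, Irgm2, Igtp and Irf1) from 45706 gene identifiers, and all 10 passed the filter on low counts in every comparison. The choice was made with earlier results of these data known. Counts of the 10 set beside shares of all genes below are therefore descriptions and no test of the set. RNA was sequenced from long-term hematopoietic stem cells (HSC) and multipotent progenitors (MPP), the more mature cells that HSC give rise to, from bone marrow of C57BL/6 mice aged 10 weeks. The mice were wild type, with no allele or transgene named, and each had received either 1 mg of β-glucan in PBS or PBS alone into the abdominal cavity. At day 7 there were 3 HSC libraries of β-glucan mice and 4 of PBS mice. At day 28 there were 4 MPP libraries of β-glucan mice, 4 MPP libraries of PBS mice, 4 HSC libraries of β-glucan mice and 4 HSC libraries of PBS mice. A last set had been given 150 mg/kg of 5-fluorouracil (5-FU), a drug that kills dividing cells, on day 7, and gave 4 HSC libraries of β-glucan mice and 4 of PBS mice 14 days after the drug. The sources used here do not say whether libraries came from separate mice or from pools, so p-values measure only the spread between these libraries, which may be technical.

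Interferon gamma acts through the receptor chains Ifngr1 and Ifngr2 and the kinases Jak1 and Jak2, and a promoter element called GAS takes part in the response. Irf1, itself induced by interferon gamma, binds another element, the ISRE, and takes part in switching on the guanylate-binding proteins (Gbp genes) and the immunity-related GTPases (Iigp1, Irgm1, Irgm2 and Igtp). These GTPases attack the membranes around intracellular pathogens. Iigp1 is an effector, whereas Irgm1, Irgm2 and Igtp keep effectors inactive on the cell's own membranes, and in mice Irgm1 is also known to be needed for normal stem cell function.

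Promoter sequence, from RefSeq on GRCm38.p6 (the mm10 build), was matched for 7 of the 10 genes at 9 start sites. Searched in the 250 bases before each start on both strands, the ISRE core (GAAA, any 2 bases, then GAAA) was found at 6 of the 9 start sites and in 2.98% of 32851 such windows of all genes. The GAS letters TTCNNNGAA, which read alike on both strands, were found at 4 of the 9 start sites and in 7.02% of windows, and 0.332% of windows held both. The stretches with matches are shown because they place these genes beside the elements of the pathway. Capitals mark the matches, which lie in antisense orientation where the ISRE reads TTTC, 2 bases and TTTC, and overlapping matches are joined.
Gbp7, chr3:142530215-142530307, plus strand: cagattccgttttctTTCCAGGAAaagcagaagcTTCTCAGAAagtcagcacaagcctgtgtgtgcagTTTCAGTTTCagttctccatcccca
Gbp3, chr3:142559984-142560029, plus strand: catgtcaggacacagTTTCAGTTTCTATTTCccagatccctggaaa
Gbp2, chr3:142620589-142620628, plus strand: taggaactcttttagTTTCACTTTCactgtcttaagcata
Irgm1, chr11:48871421-48871465, minus strand: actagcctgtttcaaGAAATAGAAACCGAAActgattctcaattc
Igtp, chr11:58199496-58199546, plus strand: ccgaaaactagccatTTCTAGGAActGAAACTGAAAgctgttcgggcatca
Irgm2, chr11:58214887-58214937, plus strand: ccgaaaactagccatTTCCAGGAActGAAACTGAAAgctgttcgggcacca
Irf1, chr11:53769909-53769947, plus strand: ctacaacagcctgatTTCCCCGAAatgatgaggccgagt
Gbp7, Igtp and Irgm2 held both elements, Gbp3, Gbp2 and Irgm1 the ISRE core alone, and Irf1 the GAS alone. The other start sites of Gbp3 and Irf1 held neither set of letters. A match is a description of letters and shows no binding.

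**Figure D1:**
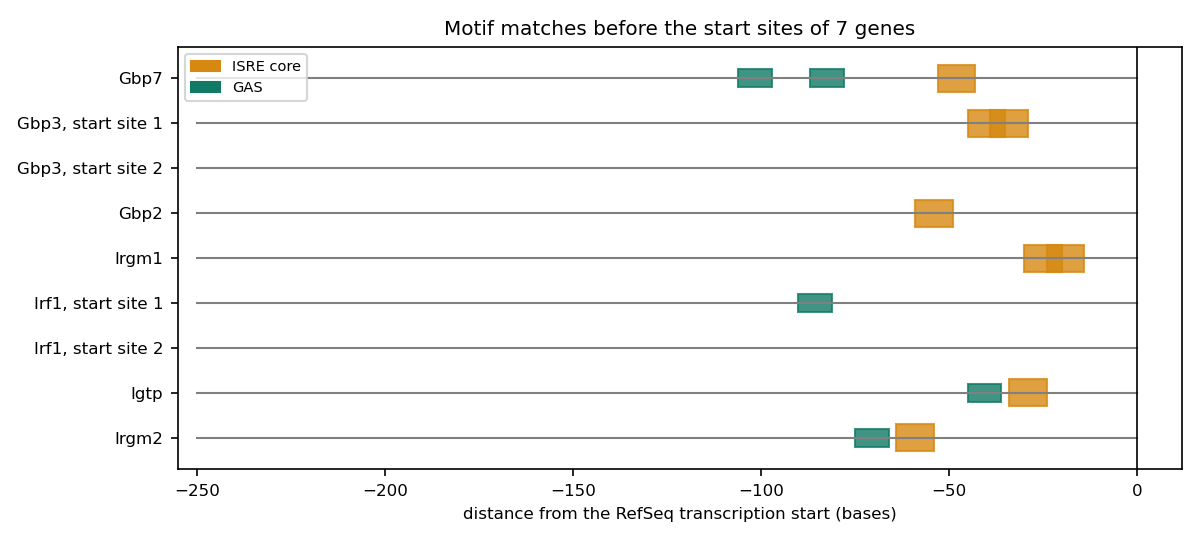
Positions of ISRE core matches (orange) and GAS matches (green) in the 250 bases before 9 RefSeq start sites of 7 genes; the x axis is the distance from the start in bases. Matches occur at 7 of the 9 start sites and lie within the last 106 bases, from -106 in Gbp7 to -24 in Irgm1 by their first base.

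Some of these genes cannot be counted cleanly, because libraries were not stranded and family members share sequence. Gbp6 (ENSMUSG00000104713) shares 70.7% of its 50-base stretches with other genes, mostly Gm43302 and Gbp10, so its values are uncertain. Gbp6 also overlaps Gm43302 by 1726 exonic bases, and Gbp7 overlaps Gm43802, on the same strand, by 637. Igtp (ENSMUSG00000078853, chromosome 11, 58199556 to 58207591) and Irgm2 (ENSMUSG00000069874, chromosome 11, 58199618 to 58222779) overlap by 162 exonic bases, and Irf1 (ENSMUSG00000018899, chromosome 11, 53770014 to 53778374) overlaps the antisense gene Gm17334 by 135 bases. Gbp2, Gbp3, Irgm1 and Iigp1 share 0.31 to 3.75% of their stretches with other genes, Irf1 none, and Gbp7, Gbp9, Irgm2 and Igtp 7.77 to 12.7%. All levels below are in CPM, a gene's count scaled to its library's TMM-adjusted total, from library totals of 19331663 to 39485556 counts. Each of the 3 count tables was scaled apart.

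The sorted cells carried RNA of other cell types, which moved with the groups. At day 7 the summed CPM of 14 mature neutrophil markers was 78932 to 125892 in β-glucan libraries and 55659 to 64197 in PBS libraries. There, 12 monocyte and macrophage markers summed to 2138 to 3145 in β-glucan libraries and 1441 to 1675 in PBS libraries, and 16 T and NK cell markers to 609 to 773 in β-glucan libraries and 489.8 to 543 in PBS libraries. Most T and NK cell markers did not share the higher sum: 4 had a positive and 12 a negative log2 fold change (median -0.32). Of them 1 was called higher and 2 lower. Red cell markers (11 genes) summed to 20412 to 25272 in β-glucan libraries and 58432 to 73896 in PBS libraries, and 10 B cell markers to 296 to 390.1 in β-glucan libraries and 777 to 872 in PBS libraries. At day 28, red cell markers summed to 157268 to 174863 in HSC of β-glucan mice and 181859 to 202716 in HSC of PBS mice, and neutrophil markers to 63195 to 71765 in HSC of β-glucan mice and 73009 to 89088 in HSC of PBS mice. In MPP, B cell markers summed to 519.9 to 582 in β-glucan libraries and 698 to 766 in PBS libraries, and neutrophil markers to 48019 to 63248 in β-glucan libraries and 61794 to 78136 in PBS libraries. After 5-FU, red cell markers summed to 90641 to 121206 in β-glucan libraries and 133342 to 157638 in PBS libraries. There, 11 stromal and endothelial markers summed to 434 to 518 in β-glucan libraries and 222 to 382 in PBS libraries. Neutrophil markers overlapped after 5-FU, at 149116 to 179382 in β-glucan libraries and 144201 to 214125 in PBS libraries. Of 15 T and NK cell markers tested after 5-FU, 13 had a positive and 2 a negative log2 fold change (median 0.40), with 0 called. No marker was at 0 in all libraries of any group. The sort labels fitted their markers at day 28, where 7 MPP markers summed to 3185 to 4172 in MPP and 1086 to 1814 in HSC, and 14 LT-HSC markers to 270.4 to 324 in MPP and 421 to 649 in HSC. Within HSC at day 28, LT-HSC markers summed to 421 to 473 in β-glucan libraries and 487 to 649 in PBS libraries. Of the 14, 13 had a negative log2 fold change there (median -0.32) and 0 were called. The part of this shift in the results below was not tested. The part of these other cells in the results below was not tested, and in bulk RNA fewer cells of a type and less RNA per cell cannot be told apart.

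Per kilobase of exon, Igtp was the highest of the 10 genes and Gbp6 the lowest in HSC of PBS mice. At day 28 the PBS level was 23.6 ± 3.0 CPM per kb for Igtp, 19.0 ± 1.17 for Irgm1 and 15 ± 0.715 for Irf1 (SD, n = 4). Gbp7 (10.7 ± 0.917), Gbp2 (9.72 ± 0.644) and Irgm2 (9.41 ± 0.781 CPM per kb) followed and lay within the sum of their SDs of each other. Gbp3 stood at 7.70 ± 0.434, Iigp1 at 4.20 ± 0.486, Gbp9 at 1.29 ± 0.121 and Gbp6 at 0.0814 ± 0.0352 CPM per kb. In the day 7 PBS libraries Igtp again led (47.8 ± 7.42 CPM per kb, n = 4), while Irf1 (36.5 ± 1.78), Irgm1 (34.6 ± 3.16) and Gbp2 (34.3 ± 2.60) lay within the sum of their SDs of each other.

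All 10 genes had higher levels in the day 7 table than in the other tables. In HSC of PBS mice the mean of Gbp2 was 24.5 CPM at day 28 and 86.3 CPM at day 7, and that of Iigp1 13.1 CPM at day 28 and 72.0 CPM at day 7. Irgm1 averaged 110.2 CPM at day 28 and 201 CPM at day 7, and Irf1 59.8 CPM at day 28 and 145 CPM at day 7, whereas the receptor gene Ifngr1 stood at 280.4 CPM at day 28 and 292 CPM at day 7. Table and day cannot be told apart here, and the levels were not tested across tables. The near-identical GTPase genes Tgtp1 and Tgtp2, which share reads, held 119 and 27.8 CPM in PBS HSC at day 28 but 27.3 and 106 CPM at day 7.

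**Figure D2:**
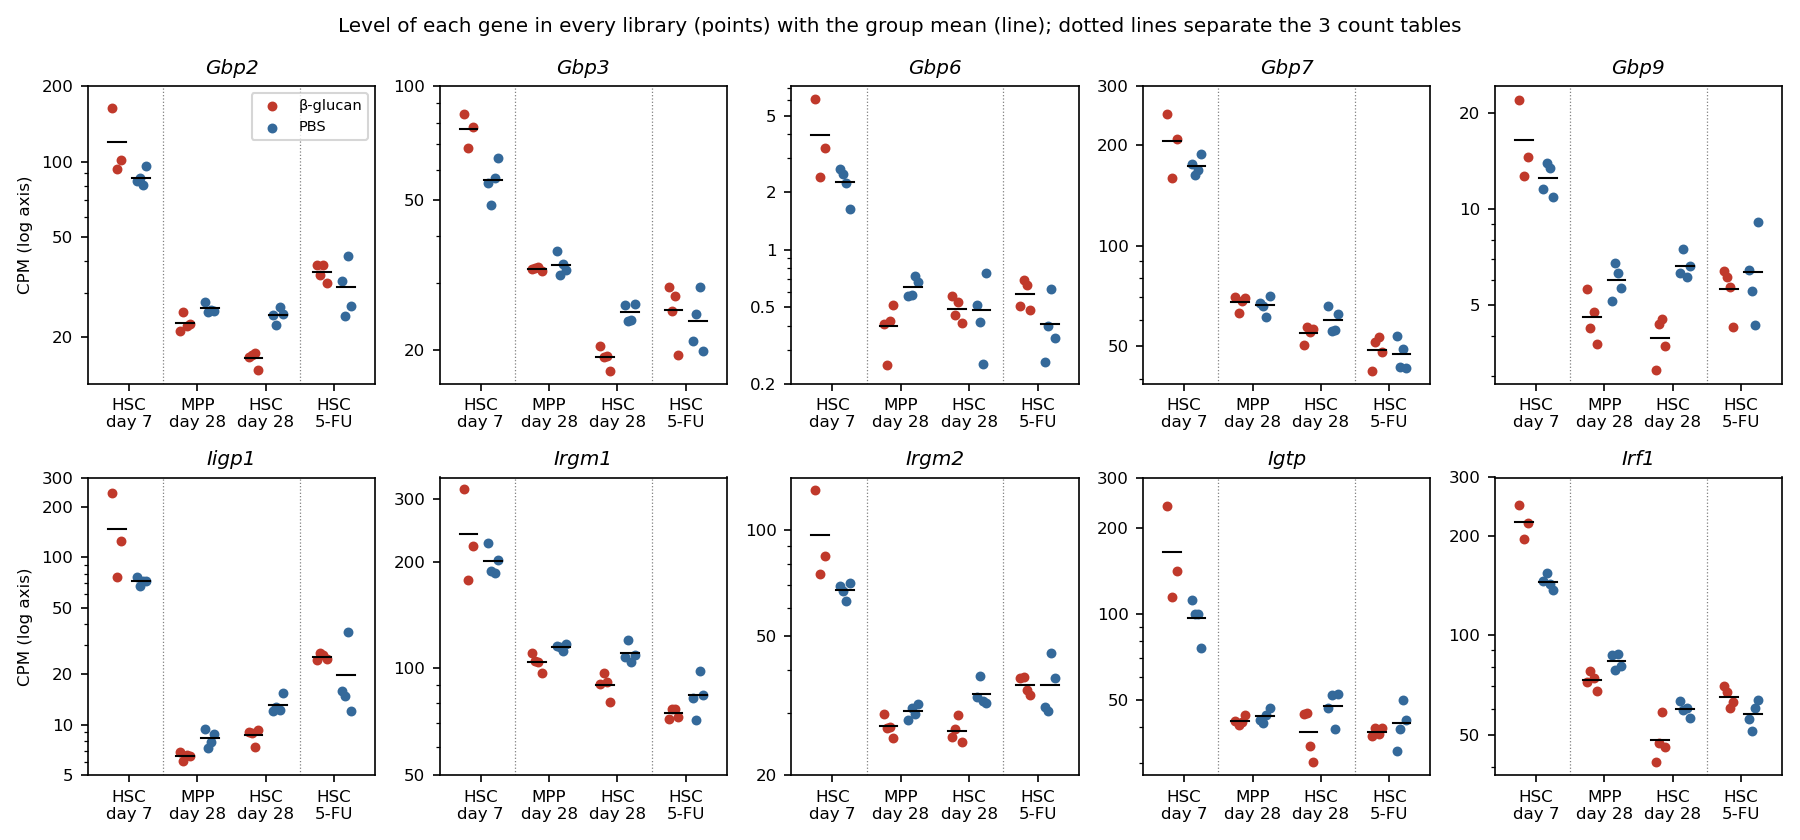
CPM (log axis) of each of the 10 genes in every library (points), with β-glucan (red) left of PBS (blue), for HSC at day 7, MPP and HSC at day 28, and HSC after 5-FU; black lines are group means and dotted lines part the 3 count tables. β-glucan points lie mostly above PBS points at day 7 and mostly below them at day 28, and after 5-FU the groups overlap for all 10 genes.

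At day 7, Irf1, Gbp3 and Iigp1 rose in HSC of β-glucan mice. Irf1 stood at 247, 195 and 219 CPM in the 3 β-glucan libraries, against 146, 154, 143 and 137 CPM in the 4 PBS libraries. The groups did not overlap, and the log2 fold change was 0.60 ± 0.09 (SE; adjusted p = 0.00241, by edgeR's quasi-likelihood F test, Benjamini-Hochberg adjusted over 16403 genes). Gbp3 (ENSMUSG00000028268, chromosome 3, 142560026 to 142573209), a guanylate-binding protein, stood at 84.4, 68.3 and 77.8 CPM in β-glucan libraries and 55.2, 48.5, 57.0 and 64.6 CPM in PBS libraries. These groups also lay apart (0.45 ± 0.11, adjusted p = 0.0311). The effector GTPase Iigp1 (ENSMUSG00000054072) had 241, 76.0 and 125 CPM in β-glucan libraries and 76.4, 67.6, 72.0 and 72.1 CPM in PBS libraries. Its call (1.03 ± 0.28, adjusted p = 0.0478) rested on groups that overlapped, since the β-glucan library of 76.0 CPM lay inside the PBS range. DESeq2 (1.04, adjusted p = 0.0736) and limma voom (0.82, adjusted p = 0.0547) did not call it, whereas both called Irf1 and Gbp3.

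The other 7 genes were also higher on average but did not pass the threshold of 0.05. Igtp, a regulator of effector GTPases, had 238, 114 and 141 CPM in β-glucan libraries and 112, 100.02, 99.5 and 75.9 CPM in PBS libraries (0.76 ± 0.21, adjusted p = 0.0523). Irgm2, a regulator of the same kind, had 130.3, 75.2 and 84.6 CPM in β-glucan libraries and 69.5, 67.1, 62.9 and 70.9 CPM in PBS libraries (0.52 ± 0.15, adjusted p = 0.0731). For both genes every β-glucan library lay above every PBS library. Log2 fold changes were 0.46 ± 0.16 for Gbp2, 0.81 ± 0.31 for Gbp6, 0.40 ± 0.19 for Gbp9, 0.24 ± 0.13 for Gbp7 and 0.26 ± 0.16 for Irgm1, with adjusted p of 0.126 to 0.425 and overlapping groups. In sum 3 of 10 genes were called higher and 0 lower, where 2.83% of all genes tested were called higher and 3.88% lower. The groups were apart for 4 of 10 genes, all higher in β-glucan libraries, against 8.69% of all genes. The median log2 fold change was 0.49 for the 10 genes and -0.01 for all genes.

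The β-glucan libraries of day 7 differed among themselves. Library 1 was the highest of the 3 for 10 of 10 genes, and library 2 the lowest for 10 of 10. Library 1 lay above all PBS libraries for 10 genes, library 3 for 9 and library 2 for 4. Averaged over the genes as centred log2 CPM, the 3 β-glucan libraries stood at 0.76, -0.10 and 0.20 and the 4 PBS libraries at -0.26 to -0.15. In the same order the β-glucan libraries held 78932, 125892 and 96938 CPM of neutrophil markers, 2138, 3145 and 2449.9 CPM of monocyte and macrophage markers, and 609, 773 and 685 CPM of T and NK cell markers. Library 1, with the highest GTPase levels, held the least of these 3 marker sums among the β-glucan libraries. It held the most red cell markers (25272, against 20412 in library 2 and 23881 in library 3) and the most LT-HSC markers (1698, against 1310.1 in library 2 and 1261 in library 3). Whether marker sums and GTPase levels were linked in these 3 libraries was not tested. Without library 1 only Irf1 was called (0.51, adjusted p = 0.00372), Iigp1 stood at 0.48 and Irgm1 at -0.01, and the median of the 10 genes was 0.30. Leaving out β-glucan library 3 or PBS library 1, 2 or 3 also left 1 called gene, Irf1. Gbp3 and Iigp1 lost their calls in each of these runs. Leaving out β-glucan library 2 gave 5 called genes.

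At day 28 the difference ran the other way in HSC, but no gene passed the threshold in edgeR. Gbp2 (ENSMUSG00000028270, chromosome 3, 142620602 to 142638008), a GTPase that gathers on pathogen vacuoles, had 16.6, 17.0, 17.3 and 14.7 CPM in β-glucan libraries and 24.5, 22.4, 26.3 and 24.7 CPM in PBS libraries. The groups were apart, with a log2 fold change of -0.59 ± 0.09 (adjusted p = 0.0545). Gbp9 (ENSMUSG00000029298, chromosome 5, 105077630 to 105139539), another guanylate-binding protein, had 3.13, 4.37, 4.53 and 3.73 CPM in β-glucan libraries and 6.30, 7.53, 6.13 and 6.65 CPM in PBS libraries (-0.77 ± 0.15, adjusted p = 0.092). Iigp1 had 9.02, 8.88, 7.33 and 9.30 CPM in β-glucan libraries and 12.1, 12.7, 12.3 and 15.4 CPM in PBS libraries (-0.61 ± 0.12, adjusted p = 0.092). In these genes, too, every β-glucan library lay below every PBS library. The same held for Gbp3 (-0.41 ± 0.09), Irgm1 (-0.31 ± 0.08) and Irgm2 (-0.36 ± 0.09).

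Irf1 and Igtp overlapped between the groups at day 28. Irf1 had 41.3, 47.1, 58.7 and 46.0 CPM in HSC of β-glucan mice and 63.1, 59.5, 60.2 and 56.2 CPM in HSC of PBS mice (-0.32 ± 0.10, adjusted p = 0.18). A single β-glucan library, the third, reached into the PBS range. Igtp stood at -0.32 ± 0.14, Gbp7 at -0.14 ± 0.08 and Gbp6 at 0.02 ± 0.32. By edgeR 0 of 10 genes were called, as were 0.0374% of all genes, 8 of 10 had an unadjusted p under 0.05 (17.0% of all genes), DESeq2 called 6 lower (1.83% of all genes) and limma voom with quality weights 7 lower (2.12%). The groups were apart, with β-glucan lower, for 6 of 10 genes and 4.52% of all genes, and the median was -0.34 for the 10 genes and -0.02 for all. With β-glucan library 3 and PBS library 2 left out together, a choice made with results known, edgeR called 6 of the 10 lower, beside 1.82% of all genes called lower.

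**Figure D3:**
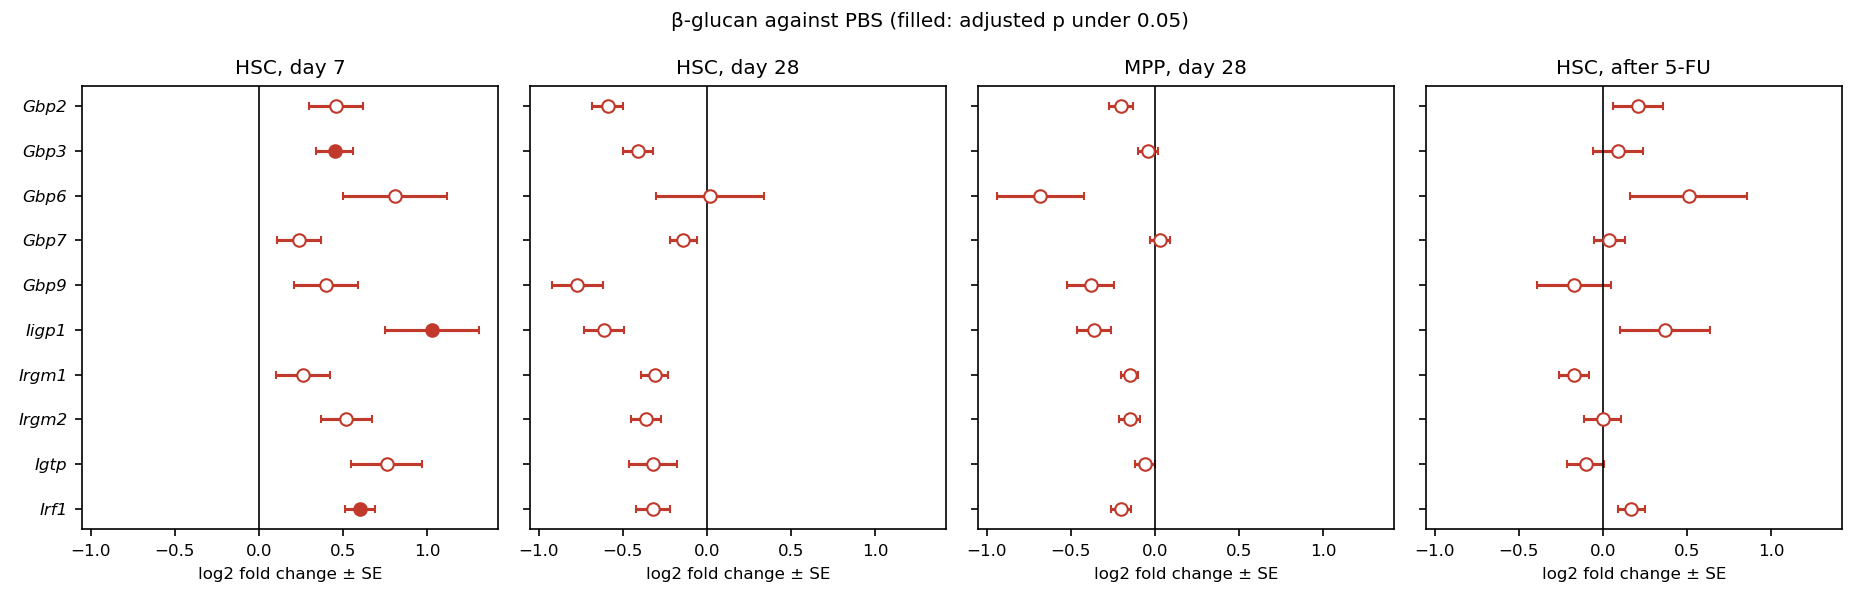
Log2 fold change (x axis, with SE) of each of the 10 genes for β-glucan against PBS in HSC at day 7, HSC at day 28, MPP at day 28 and HSC after 5-FU; filled points have an adjusted p under 0.05. All 10 points lie right of 0 at day 7, and 9 of 10 lie left of 0 in each of the day 28 panels.

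The β-glucan effect on 7 of the 10 genes was lower at day 28 than at day 7, by a test of the difference itself. The difference in log2 fold change (day 28 minus day 7) was -1.67 ± 0.33 for Iigp1 (adjusted p = 0.00693), -1.19 ± 0.25 for Gbp9 (0.01) and -1.11 ± 0.27 for Igtp (0.0239). It was -1.08 ± 0.19 for Gbp2 (adjusted p = 0.00383), -0.95 ± 0.14 for Irf1 (0.00124), -0.90 ± 0.19 for Irgm2 (0.00947) and -0.88 ± 0.14 for Gbp3 (0.00156). Irgm1 (-0.59 ± 0.19, adjusted p = 0.0825), Gbp7 (-0.41 ± 0.16, 0.145) and Gbp6 (-0.82 ± 0.47, 0.368) did not pass. Over all 17977 genes tested, 2.58% were called lower in this contrast and 2.24% higher, and the median was -0.92 for the 10 genes against -0.02 for all. Leaving out each library in turn gave 6 to 9 called genes. Without β-glucan library 1 of day 7 it was 6, with Igtp no longer called (-0.74). Each effect was taken within its own count table, so day and table cannot be told apart in the contrast.

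**Figure D4:**
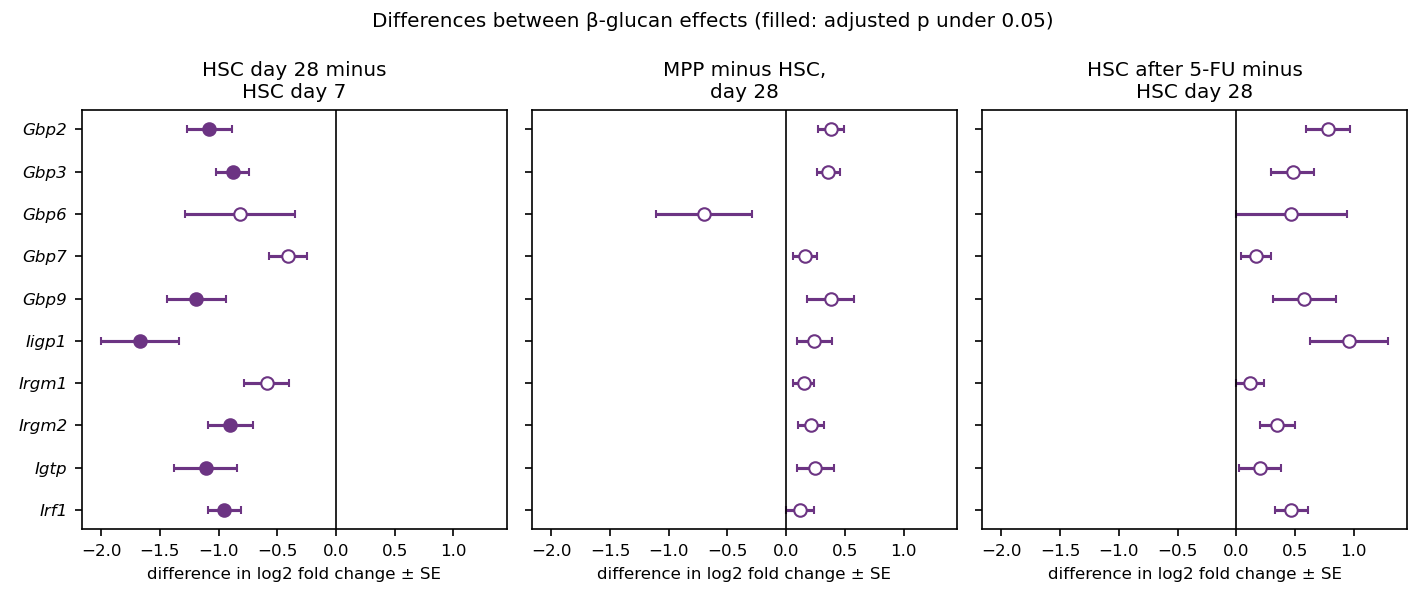
Difference between β-glucan effects (x axis, log2 with SE) for each of the 10 genes, as HSC day 28 minus HSC day 7, MPP minus HSC at day 28, and HSC after 5-FU minus HSC day 28; filled points have an adjusted p under 0.05. The 7 filled points are all in the first panel, between -1.67 and -0.88.

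In MPP at day 28 the log2 fold change was negative for 9 of 10 genes, and none was called. Iigp1 had 6.88, 6.05, 6.58 and 6.48 CPM in β-glucan libraries and 9.41, 7.26, 7.84 and 8.79 CPM in PBS libraries (-0.36 ± 0.10, adjusted p = 0.0656). Irf1 had 72.2, 78.2, 74.2 and 67.9 CPM in β-glucan libraries and 87.1, 78.3, 88.0 and 80.9 CPM in PBS libraries (-0.20 ± 0.06, adjusted p = 0.0641). Both genes were apart between the groups, Irf1 by 78.2 against 78.3 CPM at the nearest libraries. Gbp2 (-0.20 ± 0.07), Irgm1 (-0.15 ± 0.05) and Gbp6 (-0.68 ± 0.26) were also apart, whereas Gbp3 (-0.04 ± 0.06), Gbp7 (0.03 ± 0.06), Igtp (-0.06 ± 0.06), Gbp9 (-0.38 ± 0.14) and Irgm2 (-0.15 ± 0.06) overlapped. By edgeR 0 of 10 were called, beside 2.72% of all 15828 genes called higher and 1.91% called lower, 7 of 10 had an unadjusted p under 0.05 (19.3% of all genes), DESeq2 called 3 lower (3.53% of all genes) and limma voom called 0. The groups were apart, with β-glucan lower, for 5 of 10 genes and 5.24% of all genes. Whether the effect differed between MPP and HSC was tested directly: 0 of 10 genes were called by edgeR, DESeq2 or limma voom (0.00599% of all genes by edgeR), 2 had an unadjusted p under 0.05 (6.19% of all genes), and those 2 were Gbp2 (0.38 ± 0.11) and Gbp3 (0.36 ± 0.10; adjusted p = 0.677 for each).

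Between cell types, MPP held more Gbp3 and Irf1 and less Iigp1 than HSC in mice of both treatments. In β-glucan mice Gbp3 had 32.7, 33.0, 33.2 and 32.4 CPM in MPP and 20.4, 19.1, 19.3 and 17.6 CPM in HSC (0.79 ± 0.06, adjusted p = 2e-05). In PBS mice it had 36.5, 31.5, 33.8 and 32.5 CPM in MPP and 26.2, 23.8, 24.0 and 26.5 CPM in HSC (0.41 ± 0.08, adjusted p = 0.00377). MPP and HSC did not overlap in either case. Irf1 was higher in MPP by 0.60 ± 0.10 in β-glucan mice (adjusted p = 0.000847) and 0.47 ± 0.07 in PBS mice (0.000769). Iigp1 was lower in MPP, with log2 fold changes of -0.41 ± 0.10 in β-glucan mice (adjusted p = 0.0104) and -0.66 ± 0.12 in PBS mice (0.00274), and no MPP library reached an HSC library.

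In β-glucan mice Gbp2 (0.47 ± 0.08), Gbp7 (0.31 ± 0.06) and Irgm1 (0.22 ± 0.06, adjusted p = 0.0218) were called higher in MPP as well. In PBS mice the same genes stood at 0.08 ± 0.08, 0.13 ± 0.08 and 0.05 ± 0.06 and were not called. The contrast of these cell type differences is the same as the MPP minus HSC contrast of effects above, in which no gene passed. In all, 5 genes were called higher and 1 lower of 10 in β-glucan mice, where 17.7% of all genes were called higher and 18.0% lower. In PBS mice it was 2 higher and 1 lower, with 9.58% and 12.1% of all genes. Leaving out MPP library 1 or 3 or HSC library 4 of β-glucan mice ended the call of Irgm1.

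**Figure D5:**
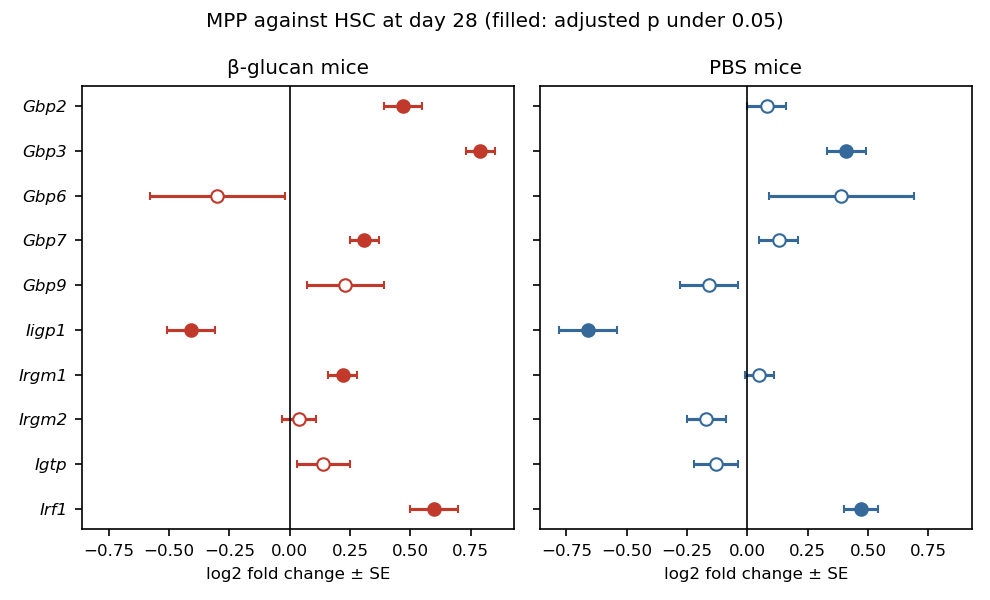
Log2 fold change (x axis, with SE) of each of the 10 genes in MPP against HSC at day 28, in β-glucan mice (left) and PBS mice (right); filled points have an adjusted p under 0.05. Gbp3, Irf1 and Iigp1 are filled in both panels, and Iigp1 is the filled point left of 0.

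After 5-FU the β-glucan and PBS libraries overlapped for all 10 genes. Over all genes the groups were apart for only 4.61%, so the overlap of all 10 is near the share of all genes. Irf1 had 70.2, 67.4, 60.2 and 62.8 CPM in β-glucan libraries and 55.8, 51.3, 60.4 and 63.8 CPM in PBS libraries (0.17 ± 0.08, adjusted p = 0.656). Iigp1 had 24.4, 26.8, 26.2 and 24.6 CPM in β-glucan libraries and 15.9, 14.8, 36.0 and 12.1 CPM in PBS libraries (0.37 ± 0.27, adjusted p = 0.849). Every β-glucan library lay between PBS library 3 and the other PBS libraries, and without PBS library 3 Iigp1 was called higher (0.84, adjusted p = 0.00845). The remaining log2 fold changes ran from -0.17 for Gbp9 and Irgm1 to 0.51 for Gbp6. By edgeR 0 of 10 were called (0.0446% of all genes), 1 had an unadjusted p under 0.05 (7.54%), and DESeq2 and limma voom called 0. For the effect after 5-FU minus the effect at day 28, all 10 differences were positive (0.12 for Irgm1 to 0.96 for Iigp1). Of these 6 had an unadjusted p under 0.05 (11.3% of all genes) and 0 were called by edgeR (0.106%). DESeq2 called 1 higher (0.453% of all genes) and limma voom 2 higher (0.383%). This contrast and that of day 28 minus day 7 share the day 28 HSC libraries, so their values are not independent.

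In the receptor pathway upstream, the feedback inhibitor Socs3 rose and the kinase Jak1 fell at day 7. Socs3 had a log2 fold change of 1.09 ± 0.22 (adjusted p = 0.0126). Jak1 averaged 212 ± 4.43 CPM in HSC of β-glucan mice (SD, n = 3) and 257 ± 11.8 CPM in HSC of PBS mice (n = 4), a log2 fold change of -0.28 ± 0.07 (adjusted p = 0.0366). The receptor chains Ifngr1 (0.27 ± 0.10) and Ifngr2 (0.34 ± 0.12) and the kinase Jak2 (-0.18 ± 0.16) were not called. Ifng, the cytokine gene itself, had 3 to 14 counts per library in β-glucan mice and 0 to 15 in PBS mice, too few to compare.

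At day 28 none of Ifngr1, Ifngr2, Jak1, Jak2 and Socs3 was called by edgeR in HSC or in MPP. Socs3 stood at 0.97 ± 0.35 in HSC (unadjusted p = 0.0167) and 0.94 ± 0.31 in MPP (unadjusted p = 0.00939), and Jak1 at 0.14 ± 0.06 in MPP (unadjusted p = 0.041). For the effect at day 28 minus that at day 7 in HSC, Jak1 stood at 0.28 ± 0.11 and Socs3 at -0.14 ± 0.45, and neither was called. Between cell types Jak1 and Jak2 were lower in MPP, with log2 fold changes of -0.43 ± 0.06 and -0.62 ± 0.08 in β-glucan mice and -0.56 ± 0.08 and -0.45 ± 0.13 in PBS mice (adjusted p at most 0.0273). Socs1, a feedback inhibitor of Jak kinases, had 0 to 12 counts per library over all groups.

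Of 19 other interferon-inducible GTPase genes tested at day 7, 0 were called, 18 had a positive log2 fold change and the median was 0.41. Ifi47 (0.37 ± 0.11) and Gm12250 (0.61 ± 0.19), both immunity-related GTPases, had adjusted p of 0.0728 and 0.0812, and Gbp4 (0.62 ± 0.41) and Gbp5 (0.27 ± 0.20), guanylate-binding proteins, lay farther from the threshold. Tgtp1 and Tgtp2 stood at 0.77 ± 0.27 and 0.62 ± 0.26. In HSC at day 28, 17 of 19 were negative with a median of -0.41 and 0 called, among them Gbp4 (-0.80 ± 0.21), Gbp5 (-0.63 ± 0.16) and Tgtp1 (-0.49 ± 0.14). In MPP 2 of 19 fell, 9930111J21Rik1 (-0.36 ± 0.08, adjusted p = 0.0223) and Gbp2b (-0.95 ± 0.25, adjusted p = 0.0466), where 1.91% of all genes fell. The effect was lower at day 28 than at day 7 for 4 of 19 genes, Gbp10 (-2.54 ± 0.49), Tgtp1 (-1.28 ± 0.33), Gm12250 (-0.91 ± 0.23) and Ifi47 (-0.70 ± 0.14), beside 2.58% of all genes. The contrast is uncertain for Tgtp1 and Gbp10, which share reads with near-identical genes, because the exchanged levels of Tgtp1 and Tgtp2 leave it unknown whether the tables were aligned or counted with the same settings. Between cell types in β-glucan mice, 10 of 18 were higher in MPP and 2 lower, beside 17.7% and 18.0% of all genes. Gm12250 (0.75 ± 0.09) and Ifi47 (0.35 ± 0.06) were among the higher ones. In PBS mice 5 of 20 were higher and 2 lower, beside 9.58% and 12.1% of all genes, and 10 of the 20 had a positive and 10 a negative log2 fold change (median 0.03).

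Other interferon targets moved in part with the GTPases. Of 23 interferon gamma response genes tested at day 7, where 2.83% of all genes rose and 3.88% fell, 4 rose and 0 fell: Psmb9, a subunit of the immunoproteasome (0.45 ± 0.08), Il18bp, a decoy for interleukin-18 (0.70 ± 0.13), and the MHC class I genes H2-D1 (0.38 ± 0.09) and H2-K1 (0.30 ± 0.08). Of 29 type I interferon response genes, 4 rose and 1 fell at day 7, with the nucleic acid sensor Zbp1 at 0.97 ± 0.18 and the antiviral enzyme Rsad2 at -1.01 ± 0.09. In MPP at day 28, 10 of the 29 fell and 0 rose, among them Ifit3 (-0.54 ± 0.09) and Isg15 (-0.31 ± 0.07), where 1.91% of all genes fell and 2.72% rose. In the same comparison 8 of 14 neutrophil markers, 6 of 10 B cell markers and 7 of 16 T and NK cell markers fell and 0 rose, and their part in these counts was not tested. The effect was lower at day 28 than at day 7 in HSC for 5 of 23 interferon gamma response genes and 11 of 29 type I genes, and higher for 0 and 1, beside 2.58% of all genes lower and 2.24% higher. Among 11 other interferon regulatory factors and their binding partners, Irf4, a lymphoid factor, fell at day 7 (-1.49 ± 0.20, adjusted p = 0.00154), in the libraries whose B cell markers were lower. In MPP at day 28 Irf2 (-0.26 ± 0.04), Irf4 (-0.62 ± 0.12) and Irf7 (-0.22 ± 0.05) fell, in libraries whose B cell markers were also lower. Irf8, a factor of the monocyte and dendritic lineages, rose there (0.36 ± 0.08). Of 12 monocyte and macrophage markers in MPP, 3 had a positive and 9 a negative log2 fold change, with 0 called higher and 2 lower. Of 10 dendritic cell markers 3 were positive and 7 negative, with 1 called higher and 0 lower. The part of these cells in the changes of the Irf genes was not tested.

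Across the 16 libraries of day 28, the genes varied together to different degrees. Pearson's r of a gene's log2 CPM with the mean of the other 9 was 0.90 for Irgm1, 0.81 for Gbp2 and 0.74 for Gbp9, and 0.22 for Gbp6 and 0.10 for Iigp1. Among 10434 other genes with a mean log2 CPM of 2 or more, those most like the mean of the 10 were Gcnt2, Oas1g, Oasl2 and Arhgap12 (r = 0.92 for each) and H2-T22 and Kdm5d (0.90 for each). With group means removed, r was 0.66 for Gcnt2, 0.59 for Oas1g, 0.28 for Oasl2, 0.79 for Arhgap12, 0.33 for H2-T22 and 0.57 for Kdm5d. These libraries share cell type and treatment differences, so the values are descriptions.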

How the data were processed

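Reads per gene were deposited by the authors as raw counts in 3 tables of 7, 16 and 8 libraries. Per the submitters' processing notes, bcl2fastq 1.8.4 and featureCounts were used on mm10, and per the labels' protocols RNA of sorted cells was amplified with a SMARTer Ultra kit, a kit whose libraries carry no strand. No aligner is named in these sources. Column names carry neither day nor drug, so tables were tied to groups by their sets of libraries, and 1 MPP library of PBS mice that carries an HSC tag was grouped by its title.

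Symbols came from GENCODE M21 (45143 identifiers). Counts were fitted with edgeR 4.0.16 in R 4.3.3: filterByExpr with a minimum count of 10, TMM scaling, the quasi-likelihood test on the groups compared, and Benjamini-Hochberg adjustment over all genes tested with a threshold of 0.05. A gene that passed is written as called. Differences between effects were contrasts of 4 groups in 1 fit. The SE is the absolute log2 fold change divided by the square root of F. Levels are CPM, and log2 CPM uses a prior count of 2. Alternatives were DESeq2 1.42.0 (test and size factors), limma 3.58.1 voom with quality weights, no filter, a filter of mean CPM of at least 5, a replicate block, and each library left out. The procedure was checked on simulated counts.

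The 10 genes and the 14 other gene lists were chosen with earlier results of these data known, and no set test was run. All 10 genes are named, with up to 4 genes of smallest p per other list described, the receptor, kinase and close-relative genes, and the 6 genes of highest r. Further examples were picked after their values were seen. Of 204 list entries, Ahsp and Emr1 had no match. The 45 replicate pairs were compared and none was a duplicate (chi-square per gene 6.75 to 50.3). Replicate numbers were tested for pairing, and in no comparison did every pair correlate above 0.1. For MPP against HSC in β-glucan mice, however, each of 4 correlated best with its own number. Counts over the whole receptor signalling list are not reported here.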

Additional observations from a re-analysis of the deposited data

Results flagged for a closer look

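Iigp1 in PBS library 3 after 5-FU stood at 36.0 CPM, far from the other 3 PBS libraries (12.1 to 15.9 CPM). It was the only such case among 70 checks of a gene within a group of 4 libraries, where chance alone gives about 1 in 20. The same library was the highest of the 4 PBS libraries for 7 of the 10 genes.

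The β-glucan effect differed between HSC at day 28 and HSC at day 7 for 7 genes by edgeR's contrast of the effects. The differences (day 28 minus day 7, log2) were -1.67 for Iigp1, -1.19 for Gbp9, -1.11 for Igtp, -1.08 for Gbp2, -0.95 for Irf1, -0.90 for Irgm2 and -0.88 for Gbp3, with adjusted p of 0.00124 to 0.0239. At day 7 the β-glucan libraries were higher on average for each of these genes, and at day 28 they were lower.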

How the results depend on the processing

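Over the 10 genes no called value changed sign under any alternative. With DESeq2's test, limma voom with quality weights and no filter, the genes called among the 10 in HSC at day 28 numbered 6, 7 and 3, against 0 by the settings reported, and 6 with β-glucan library 3 and PBS library 2 left out. The genes called over the whole table there were 589, 598, 182 and 669, against 6. At day 7, no filter called 6 of the 10, DESeq2 1711 genes and voom 1744. In MPP, DESeq2, no filter and the stricter filter called 3, 1 and 1 of the 10, and DESeq2 and no filter 1301 and 1181 genes. After 5-FU the genes called were 147 by DESeq2, 42 by voom, 110 with no filter and 12 with the stricter filter. For the MPP minus HSC contrast DESeq2 and no filter called 2 genes each, for day 28 minus day 7 DESeq2 and voom called 1432 and 1611, and for 5-FU minus day 28 DESeq2, voom and no filter called 151, 118 and 59, of which 1, 2 and 1 were among the 10. The cause of these changes was not tested.

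Leaving out 1 library at a time gave 1 to 5 of the 10 at day 7, 0 to 1 in HSC at day 28, in MPP and after 5-FU, 6 to 9 for day 28 minus day 7, and 0 to 2 for 5-FU minus day 28. Over all genes it gave 500 to 1252 at day 7, 1 to 51 in HSC at day 28, 164 to 1010 in MPP, 2 to 61 after 5-FU, 2004 to 5050 for MPP against HSC in PBS mice, 1 to 3 for MPP minus HSC, 445 to 1051 for day 28 minus day 7 and 6 to 49 for 5-FU minus day 28. The single calls were Gbp2 without PBS library 2 (HSC, day 28), Irf1 without β-glucan library 2 (MPP) and Iigp1 without PBS library 3 (5-FU).

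Libraries with the same replicate number correlated from -0.08 to 0.18 over the 6 comparisons. For MPP against HSC in β-glucan mice the range was 0.09 to 0.18, and each of 4 correlated best with its own number. For β-glucan against PBS in HSC at day 28 this held for 3 of 4, so pairing at day 28 cannot be settled here. With the replicate block, the genes called were 645 at day 7, 14 in HSC at day 28, 16 after 5-FU and 7 for 5-FU minus day 28. They were 6706 for MPP against HSC in β-glucan mice (5678 without the block) and 915 for β-glucan against PBS in MPP (733 without). Among the 10 the block gave 2 called genes at day 7, where Iigp1 was lost (0.88), and 8 for day 28 minus day 7, where Irgm1 was added (-0.56), and it changed no other call. Depth limits Gbp6 most, at 0.251 to 0.754 CPM outside the day 7 table.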
